A study of Mus musculus with 4 samples.

Results

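Elongating spermatids are the haploid germ cells that condense the nucleus and build the sperm head and tail after meiosis. Here they were barcodes of the testis libraries, chosen by their own transcripts. A barcode had at least 1000 genes and at most 10% of its unique molecular identifiers (UMIs, counted transcripts) from mitochondrial genes. Tnp1, Tnp2, Prm1 and Prm2 together made up at least 3% of its UMIs, and Vim, a somatic gene, had at most 1 UMI. There were 3951 such barcodes among 22924 testis barcodes within the limits on genes and mitochondrial UMIs, and among 45878 in the whole series.

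The study asked how far spermatogenesis proceeds in mouse testicular organoids (TOs) and profiled TOs and mouse testes by droplet-based scRNA-seq, with 2 libraries of each. The testes came from mice 28 days old and their cells were not sorted. The study's methods name ICR mice, and the labels state no genotype, treatment or sort for either group. TOs were rebuilt in culture from dissociated testes of newborn ICR mice, and the labels call them 28 days old in the design but give an earlier day in the dissociation protocol. The study describes the testis libraries as biological replicates, and the number of mice behind each is not given in the sources used here. Error estimates of the stage comparison below cover how the difference between stages varied between these 2 libraries, with dispersions shared across genes. They do not cover the spread of levels between libraries, which the block takes out. The testis libraries held 77016449 and 74988295 UMIs in 12179 and 11826 barcodes (replicates 1 and 2).

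During spermiogenesis, histones are replaced first by transition proteins (encoded by Tnp1 and Tnp2) and then by protamines (Prm1 and Prm2). Transcription stops as the chromatin condenses, so late proteins are made from mRNAs that were stored in the round spermatid. CREM, an activator of post-meiotic genes, binds the cAMP response element and related sequences.

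Of the 4 genes used in the selection, 3 are neighbours in the genome. Prm1, Prm2 and Tnp2 lie with Prm3, which was not used, on the minus strand of chr16:10787936-10805839, and Tnp1 lies on the minus strand of chr1:73015074-73015909 (GENCODE vM21 gene models, GRCm38). The promoters of the selection genes and of Prm3 are shown because these genes define the stage or lie in their cluster, and the capitals mark the letters TGANNTCA, the outer bases of the cAMP response element. Each sequence is from RefSeq (GRCm38.p6), on the minus strand, and, except for Prm1, ends at the base before the start that RefSeq gives. GENCODE places other starts of Prm1 and of Prm2 further upstream, which were not searched as such, and the bases printed for Prm2 lie in an intron of its longer transcript. For Prm1, where one of these starts lies inside the window, only 30 bases around the match are shown, at chr16:10796869-10796898. The others are chr1:73015900-73016009 for Tnp1, chr16:10788656-10788765 for Tnp2, chr16:10792106-10792215 for Prm2 and chr16:10790915-10791024 for Prm3.
Tnp1: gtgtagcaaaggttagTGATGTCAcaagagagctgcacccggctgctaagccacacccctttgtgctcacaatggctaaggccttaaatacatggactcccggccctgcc
Prm1: ctggtcctcttTGACTTCAtaattcctagg
Prm3: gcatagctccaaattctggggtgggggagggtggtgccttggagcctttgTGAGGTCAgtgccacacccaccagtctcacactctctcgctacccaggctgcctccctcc
Tnp2: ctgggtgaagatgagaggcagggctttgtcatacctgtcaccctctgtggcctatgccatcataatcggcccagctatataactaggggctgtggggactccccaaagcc
Prm2: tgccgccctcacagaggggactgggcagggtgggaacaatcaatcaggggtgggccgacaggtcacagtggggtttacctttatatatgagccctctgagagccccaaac
Counted from the RefSeq start, the match begins 94 bases before that of Tnp1, 64 before that of Prm1 and 60 before that of Prm3. Prm2 and Tnp2 held no match in the 250 bases before the RefSeq start, which says only that these letters are not in this window. The pattern reads the same on both strands. It was found in 3919 of 32851 RefSeq promoters of this length (11.9%). Among genes tested below that have such a promoter, it was found in 13.3% of 13097 genes, in 18.8% of the 971 genes that were higher in elongating spermatids and in 12.9% of the 170 genes that were lower. These shares are descriptions of the sequence, and no test was made of them.

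The libraries differed strongly in how many elongating spermatids they held. Testis replicate 1 had 552 among 11801 barcodes (4.68%, exact 95% CI 4.30–5.07), and testis replicate 2 had 3399 among 11123 (30.6%, 29.7–31.4). The count of replicate 1 depended more on the limits. It was 259 with the 4 genes at 5% or more, 263 with at least 3000 UMIs and 103 with the 4 genes at 10% or more, against 3139, 2480 and 2786 in replicate 2, and the last 2 settings were chosen after seeing the data. Round spermatids went the other way, with 4964 and 1499 barcodes. They were defined by the same limits, less than 1% of UMIs from the 4 genes, at least 0.1% from 5 early spermatid genes (Acrv1, Spaca1, Tex36, Sun5 and Ccer1) and more UMIs of these than of 6 meiotic genes. Another 1120 and 2573 barcodes lay between 1% and 3%. With 2 libraries there is no test of this difference, and animal, dissociation and library cannot be told apart. The intervals, like the upper limits given next, hold for counting error alone.

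No TO barcode met the rule. The 0 of 12001 and 0 of 10953 barcodes allow shares of up to 0.0250% and 0.0274%, and the highest share of the 4 genes in any TO barcode was 0.10% and 0.0666%. In the testes the highest share was 24.5% and 24.9%.

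The limits left out few barcodes that held the 4 genes at 3% or more. More than 1 Vim UMI was found in 18 and 46 of them, and 0 and 19 had more than 10% mitochondrial UMIs. Fewer than 1000 genes were found in 2 barcodes of replicate 1 and in 258 of replicate 2. Of the elongating spermatids, 46 (8.33%) and 508 (14.9%) were among the barcodes with the highest Scrublet doublet scores, against 9.74% and 9.19% of all testis barcodes within the limits. The libraries shared 30 barcode sequences (0.246% and 0.254% of their barcodes), and 1 of these was an elongating spermatid in both.

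The shares of the 4 genes, which selected the barcodes and are given without a test, had different shapes in the libraries. The median share was 4.81% in replicate 1 (interquartile range 3.79–7.84) and 15.4% in replicate 2 (11.8–19.0). In replicate 2 most barcodes formed a separate group, with 64 barcodes at 7 to 8% and 257 at 13 to 14%. In replicate 1 there were 168 at 3 to 4%, 17 at 9 to 10% and at most 17 in any higher bin. Just inside the limit, at 3 to 3.5%, lay 91 and 98 barcodes with median shares of 3.23% in both libraries and medians of 2073 and 1896.5 UMIs. Just outside, at 2.5 to 3%, lay 77 and 269 barcodes with median shares of 2.78% and 2.70% and medians of 2005 and 1800 UMIs. The limit falls in no gap in either library. In replicate 2 a local low lay at 6 to 9%, with 63 or 64 barcodes in each 1% bin, between the limit and the larger group.

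**Figure D1:**
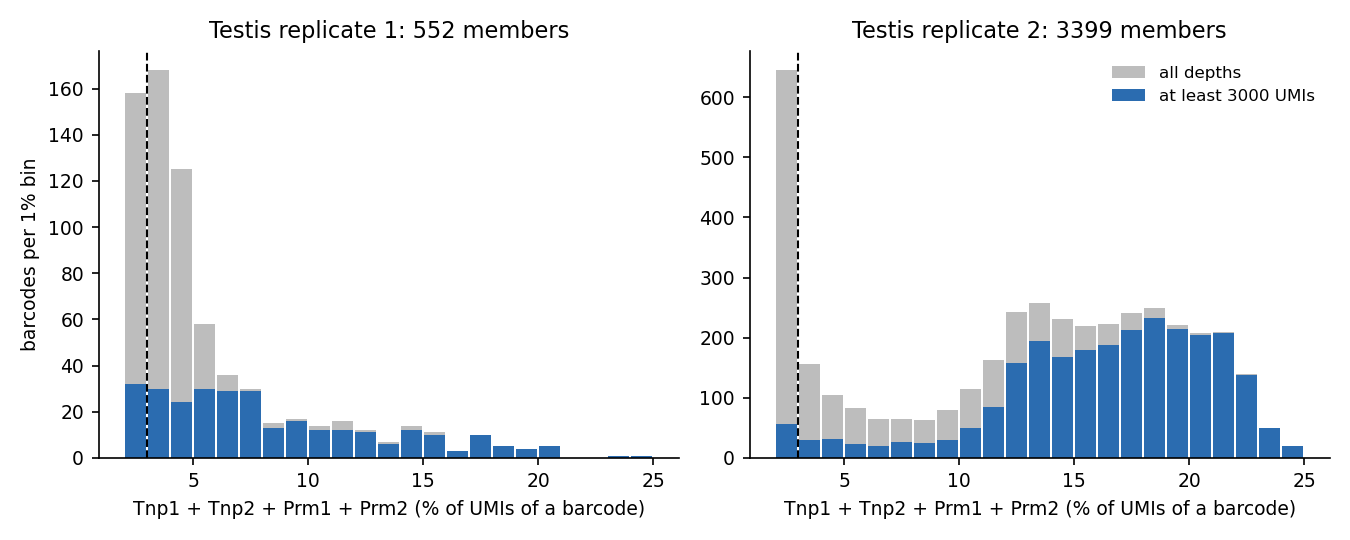
Barcodes per 1% bin (vertical axis, a scale of its own in each panel) by the share of UMIs from Tnp1, Tnp2, Prm1 and Prm2 (horizontal axis, %), from 2% on and with at most 1 Vim UMI, for testis replicates 1 and 2. Grey bars are all depths, blue bars barcodes with at least 3000 UMIs, and the dashed line is the 3% limit, above which lie 552 barcodes that thin out in replicate 1 and 3399 with most at 12% or more in replicate 2.

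Depth moved with the share. The median was 2797 UMIs and 1738 genes in replicate 1 and 4914 UMIs and 1682 genes in replicate 2. In replicate 1, 289 elongating spermatids had fewer than 3000 UMIs, with a median share of 4.07%, and 263 had at least 3000, with a median share of 7.63%. In replicate 2, the numbers were 919 and 2480, with medians of 10.4% and 17.2%. Round spermatids had medians of 2560 and 3730 UMIs. The comparisons below were also run with at least 3000 UMIs per barcode and with every barcode thinned to 1500 UMIs.

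Levels are given as counts per 1000000 UMIs (CPM) of a sum of UMIs over all barcodes of a stage in a library. The 3′ chemistry is meant to count the 3′ ends of transcripts, and levels were not divided by gene length. Whether intronic reads were also counted is not given in the sources used here. The part of gene length in the rises and falls below was not tested. Of all UMIs, the 4 genes gave 8.18% and 16.3% in elongating spermatids, 0.230% and 0.389% in round spermatids and 0.224% and 0.469% in somatic barcodes (at least 10 Vim UMIs, 198 and 159 barcodes). The last pair is the level in cells that should lack these transcripts, and the round spermatids of replicate 1 were close to it and those of replicate 2 below it. Prm1 was at 36104 and 49709 CPM in elongating spermatids, and Prm2 was at 15483 and 60149 CPM. Tnp1 was at 12503 and 21377 CPM and Tnp2 at 17686 and 32134 CPM. All 4 were higher in replicate 2, and the libraries lay furthest apart for Prm2.

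The ratio of Prm2 to Prm1 UMIs was 0.429 in replicate 1 and 1.21 in replicate 2. It was 0.404 and 0.802 in round spermatids and 0.385 and 0.960 in somatic barcodes, and the source of the few UMIs of the 4 genes in those barcodes was not tested. The libraries also lay apart at a matched share. In members with at least 3000 UMIs and a share of 15 to 20%, Prm2 was 16.4% of the 4-gene UMIs in replicate 1 (32 barcodes) and 33.6% in replicate 2 (1026 barcodes), while Tnp2 was 21.6% and 22.2%. In members at 10 to 15%, Prm2 was 18.9% in replicate 1 (53 barcodes) and 55.9% in replicate 2 (653 barcodes). There the transition proteins were low in replicate 2, with 6.95% of the 4-gene UMIs from Tnp1 and 11.4% from Tnp2, and 4.45 protamine UMIs were found for each transition protein UMI, against 1.79 in replicate 1. The group at 10 to 15% in replicate 2 was also shallower (median 4401 UMIs) than the groups above it (7340.5 and 8730.0 UMIs). These are values of 1 library each and were not tested.

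**Figure D2:**
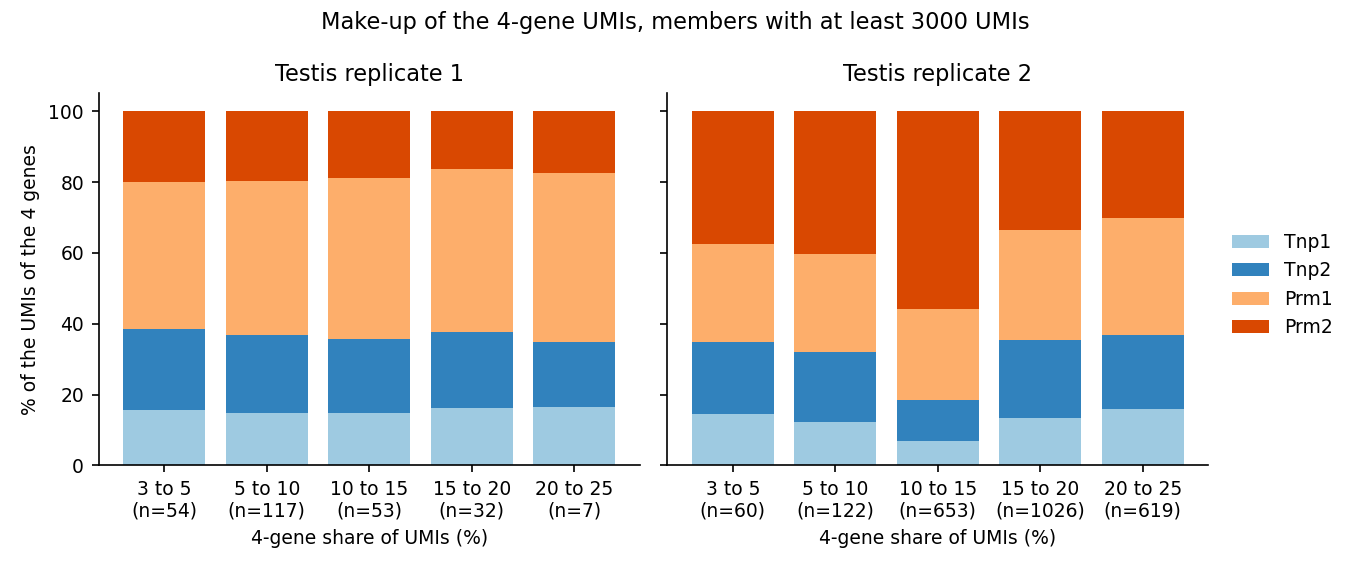
Percent of the 4-gene UMIs that came from Tnp1, Tnp2, Prm1 and Prm2 (stacked bars, vertical axis) in elongating spermatids with at least 3000 UMIs, grouped by the 4-gene share of UMIs (horizontal axis, %, with the number of barcodes) in testis replicates 1 and 2. Prm2 is 16.4 to 20.01% in every bar of replicate 1 and 30.2 to 55.9% in replicate 2, with its peak at 10 to 15%.

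The 5 early spermatid genes chose the round spermatids, so their round level was set by selection and they were not tested. Acrv1, which encodes an acrosomal protein, was at 637 and 123 CPM in elongating and 804 and 686 CPM in round spermatids. Spaca1, another acrosomal gene, was at 523 and 163 CPM against 740 and 823 CPM. Tex36 was at 316 and 152 CPM against 772 and 1045 CPM, and Sun5, of the nuclear envelope, at 169 and 41.2 CPM against 246 and 167 CPM. Ccer1 was at 545 and 163 CPM against 421 and 391 CPM. In replicate 2 all 5 were lower in elongating than in round spermatids, and in replicate 1 this held for 4 of them, with Ccer1 higher. Elongating spermatids of replicate 1 had more of each than those of replicate 2.

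Within the elongating spermatids, several transcripts differed along the share in the same direction in both libraries. Acrv1 in members with at least 3000 UMIs was at 809.9, 746, 358, 96.1 and 94.4 CPM in replicate 1 and at 850.3, 379, 97.4, 45.4 and 39.5 CPM in replicate 2, from shares of 3 to 5% up to shares over 20%. Malat1, a nuclear RNA, was at 848, 599, 579, 216 and 142 CPM and at 1257, 1621, 394, 87.1 and 45.3 CPM in the same groups. Both were lowest in the groups of the highest shares. The highest group of replicate 1 held only 7 barcodes.

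Of the tail genes followed, some had higher levels at high shares. Akap4, which encodes the main protein of the fibrous sheath, was at 570.2, 674, 888, 1121 and 1432 CPM in replicate 1 and at 486, 877, 1814, 1546 and 1749 CPM in replicate 2. Smcp, a gene of the mitochondrial sheath, was at 2317, 2940.1, 3604, 4928 and 6029 CPM and at 2737, 3774, 9493, 7489 and 8288 CPM. In replicate 2 both had their peak at 10 to 15%, the group rich in Prm2. H1fnt, which encodes a linker histone of spermatids, had no such peak, with 709, 819, 1128, 1545 and 2031 CPM and 697, 894, 1162, 2098 and 2595 CPM. Odf1, which encodes a protein of the outer dense fibres, was at 231, 199, 199, 244 and 283 CPM and 182, 229, 387, 295 and 310.1 CPM, with no steady order in replicate 1. Ldhc, the lactate dehydrogenase of germ cells, stayed between 5118 and 6894 CPM in replicate 1 and between 2634 and 4794 CPM in replicate 2. These genes were followed along the share with their values already known, and no test was made.

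**Figure D3:**
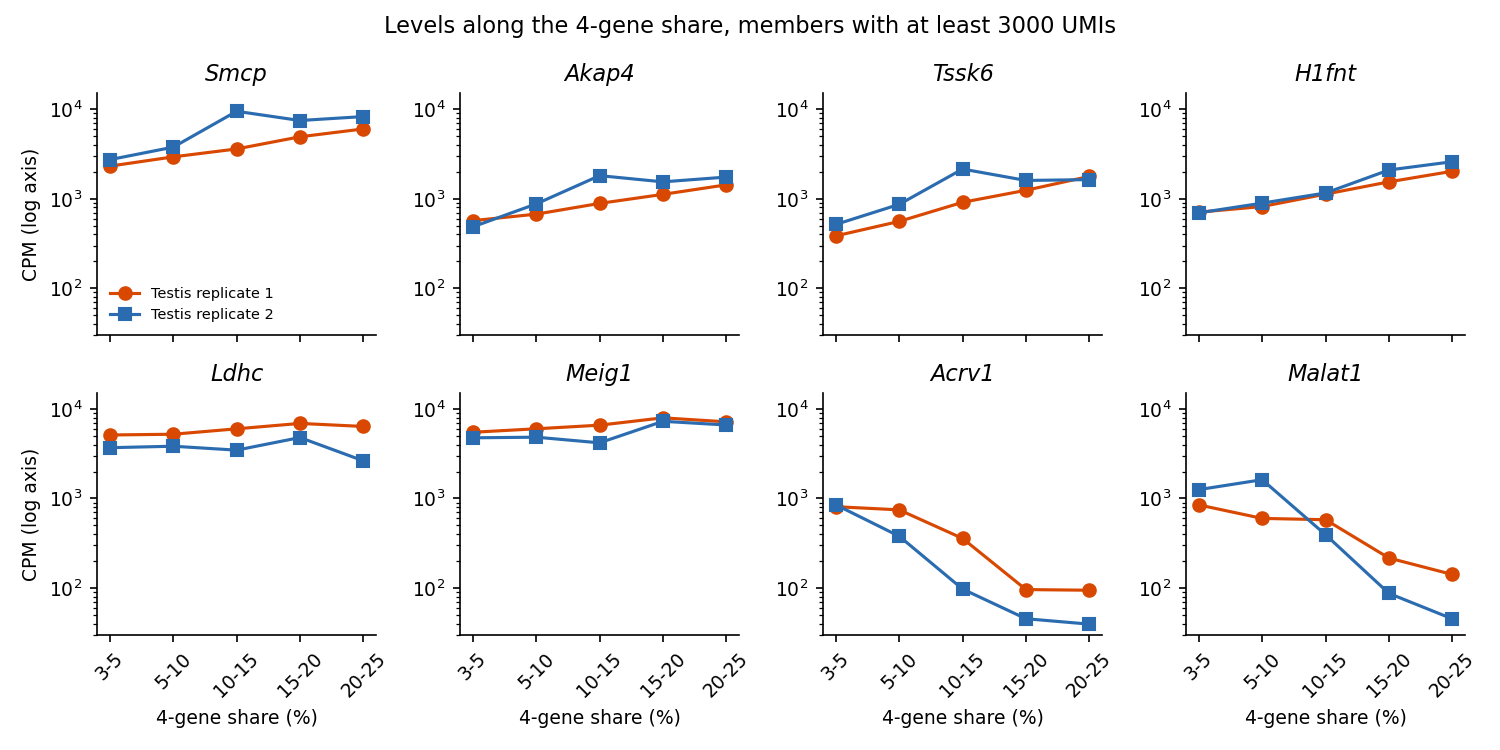
Level of 8 transcripts (vertical axes, CPM of the UMIs outside the 4 genes, log axis) in elongating spermatids with at least 3000 UMIs, by 4-gene share of UMIs (horizontal axes, %), with testis replicate 1 in orange circles and replicate 2 in blue squares. Acrv1 and Malat1 are lowest at the highest shares, Smcp, Akap4, Tssk6 and H1fnt are higher above 20% than at 3 to 5% in both libraries, with a peak of the first 3 at 10 to 15% in replicate 2, and Ldhc and Meig1 stay between 2634 and 7959 CPM.

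Mitochondrial transcripts were rare in these barcodes. Their median share was 0.155% and 0.0661% of UMIs in elongating spermatids, 0.320% and 0.696% in round spermatids and 3.74% and 3.47% in somatic barcodes. The X chromosome gave 2.37% and 1.64% of the UMIs outside the 4 genes, against 1.30% and 0.982% in round spermatids, so it was higher in both libraries. The Y chromosome gave 0.0567% and 0.0170%, against 0.0678% and 0.0594%. The 100 most abundant transcripts other than the 4 genes took 17.9% and 27.1% of the UMIs, against 17.2% and 16.8% in round spermatids. At 1500 UMIs per barcode, elongating spermatids showed a median of 1074 and 779 genes and round spermatids 1092 and 1108 genes (unthinned 1738 and 1682 against 1732 and 2229). The UMIs of the 4 genes are part of the 1500.

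The transcripts that remained from the round stage were counted at 10 CPM in both libraries. Of 7871 genes at this level in round spermatids, 5588 (71.0%) were also at this level in elongating spermatids and 2283 were not. Another 686 genes reached it in elongating spermatids and not in round spermatids. Among the 100 most abundant transcripts of each stage, ranked by the lower of the 2 libraries, 53 were shared.

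The 10 most abundant transcripts outside the 4 genes were Meig1, Ldhc, Fabp9, Gstm5, Eif1, Smcp, Odf2, Gsg1, Fam229b and Hmgb4. Meig1, needed to build the sperm tail, was at 5879.6 and 6086 CPM in elongating and 5730.0 and 5273 CPM in round spermatids. Ldhc was at 5304 and 3876 CPM against 5672 and 4676 CPM. Fabp9, a fatty acid binding protein of the perforatorium, was at 3274 and 7007 CPM against 3139.5 and 3477 CPM. For these 3, the stages of replicate 1 lay close together. None of the 10 passed the test described next.

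Genes were compared between stages with edgeR (quasi-likelihood F test) on the 4 sums, 2 stages in 2 libraries, with the library as a block. The stages were divided by the 4 genes, so the test asks which other genes move along with them. The 16 genes that chose either stage were left out. Of 18029 genes tested, 1392 were higher in elongating spermatids (7.72%) and 244 were lower (1.35%), at an adjusted p (Benjamini-Hochberg) under 0.01 with a log2 fold change beyond 1. All of them had the same direction in both libraries, which a test on these same libraries with the block favours, so this is no replication. The median log2 fold change of all genes was -0.09 with TMM scaling. With library sizes alone it moved by -0.59 to -0.69, and the calls were 721 higher and 258 lower. With TMM a gene at the same CPM in both stages has a log2 fold change above 0, so values by CPM and fold changes can differ in sign. The share of calls that were higher was 85.1% with TMM and 73.6% with library sizes. Without the block, 633 genes were higher and 5 were lower. With members at 10% or more, an alternative chosen after seeing the data that leaves 103 and 2786 barcodes, 2183 genes were higher and 2285 were lower.

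**Figure D4:**
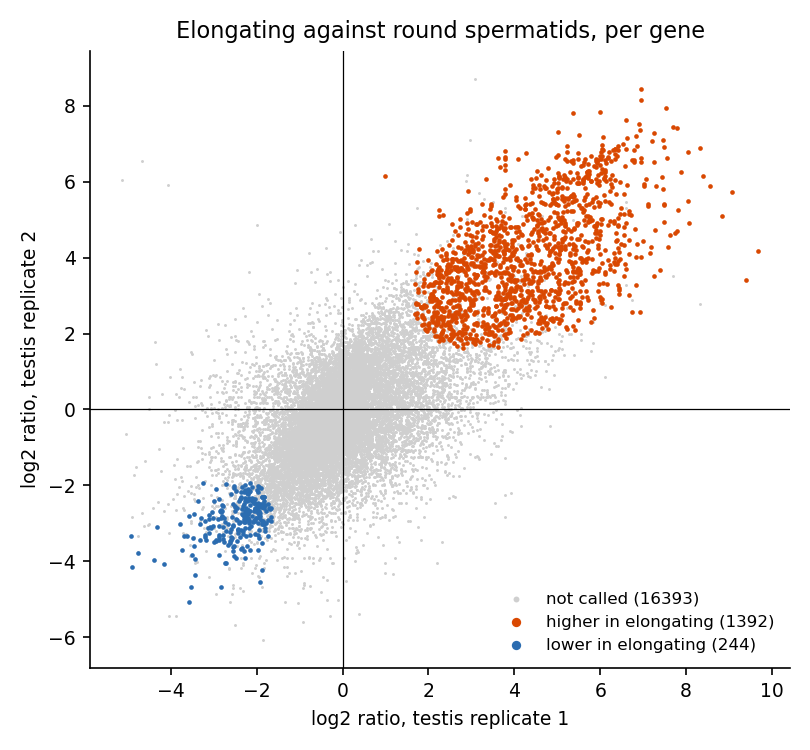
Log2 ratio of elongating to round spermatids after TMM scaling in testis replicate 1 (horizontal axis) and testis replicate 2 (vertical axis), 1 point per gene tested. The 1392 genes called higher (orange) and the 244 called lower (blue) lie on the same side of 0 in both libraries, which the test favours. Genes not called are grey.

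The genes that rose most were at low levels in round spermatids. The 10 with the largest log2 fold change, among those that passed the test and reached 100 CPM in elongating spermatids of both libraries, were Nudt16l2, Car2, 1700009J07Rik, Tex46, Klk1b26, Oxct2b, Agpat2, Oxct2a, Ttc24 and Bpifa3. Their log2 fold changes ran from 6.37 to 6.76. Car2, which encodes carbonic anhydrase 2 (chr3:14886273-14900770, GENCODE vM21), was at 263 and 1071 CPM in elongating and 4.37 and 15.2 CPM in round spermatids (log2 fold change 6.61 ± 0.61 SE, edgeR adjusted p = 0.000214). Agpat2, an enzyme of phospholipid synthesis, was at 188 and 614 CPM against 3.49 and 10.1 CPM (edgeR adjusted p = 0.0002). The stages did not overlap for either gene. Oxct2a and Oxct2b, which encode near-identical enzymes of ketone body use in the testis, were at 190.2 and 590.2 CPM against 3.95 and 8.88 CPM and at 148 and 537 CPM against 2.98 and 7.85 CPM. How their reads were divided between the copies is uncertain, as it is for Klk1b26 and other kallikrein genes, and each overlaps a Bmp8 gene on the same strand.

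Appearing transcripts, below 10 CPM in round and at least 50 CPM in elongating spermatids of both libraries, numbered 93 among the genes tested. The 6 most abundant were Defb33, Klk1b8, 1700009J07Rik, Oxct2a, Prkcd and Nudt16l2. Defb33, a beta-defensin gene, was at 331 and 345 CPM in elongating and 6.52 and 7.55 CPM in round spermatids. Prkcd, which encodes protein kinase C delta, was at 187 and 364 CPM against 5.15 and 9.7 CPM, with 18.8 and 19.1 CPM in somatic barcodes. Nudt16l2 was at 186 and 736 CPM against 2.71 and 9.62 CPM.

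The falls were smaller. The 10 largest, among those that passed the test and reached 100 CPM in round spermatids of both libraries, were Agbl1, Cnbd1, Adgb, Lrriq1, Gm20268, Itgad, Tnrc18, Spam1, 1700041C23Rik and 5330438D12Rik, with log2 fold changes from -3.08 to -2.39. Agbl1, a carboxypeptidase that trims polyglutamate chains, was at 19.5 and 13.9 CPM in elongating and 162 and 266 CPM in round spermatids (log2 fold change -3.08 ± 0.46 SE, edgeR adjusted p = 0.00174). Spam1, the sperm hyaluronidase, was at 26.1 and 21.5 CPM against 164 and 225 CPM (edgeR adjusted p = 0.0039). Adgb, which encodes androglobin, was at 28.6 and 13.2 CPM against 129.9 and 221 CPM. Of these 10 genes, 9 (all but Agbl1) were not called without the block. Gm20268, Itgad and 1700041C23Rik were not called with barcodes thinned to 1500 UMIs, 1700041C23Rik also not within 5000 genes and 20000 UMIs, and Adgb not with library sizes alone.

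Leaving transcripts, at least 50 CPM in round and below 10 CPM in elongating spermatids of both libraries, numbered 20. The 6 most abundant were Atp10a, Gm47729, Cntn6, Tpte, Gm6117 and Pip5k1a. Atp10a, a phospholipid flippase, was at 8.81 and 8.27 CPM in elongating and 72.9 and 123 CPM in round spermatids. Tpte, a transmembrane phosphatase gene, was at 4.95 and 7.71 CPM against 63.3 and 127 CPM. None of the 6 was called without the block, and Pip5k1a was also not called within 5000 genes and 20000 UMIs.

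The gene lists below were written by function, but with earlier results of these data known, so they are not independent of the data. Their counts stand beside the 7.72% and 1.35% of all genes. Counts at an unadjusted p under 0.05 have no share of all genes beside them and are read as no result about a list. A list median is read against the median of all genes, since the scaling moves both. In chromatin genes, 1 of 25 was higher and none lower, with a median log2 fold change of -0.08. The 1 was H1fnt (chr15:98255986-98257293), at 887 and 1813 CPM in elongating and 134 and 162 CPM in round spermatids (log2 fold change 3.69 ± 0.63 (SE), adjusted p = 0.00346, edgeR), a call that was lost without the block. Hmgb4, a high mobility group protein of germ cells, was at 2491 and 3214 CPM against 482 and 312 CPM with an adjusted p just above the threshold (edgeR, adjusted p = 0.0101). H3f3a and H3f3b, which encode histone H3.3, were at 1479 and 813 CPM against 1429 and 2114 CPM and at 1536 and 589 CPM against 2189 and 2193 CPM, and neither was called. Both were lower in elongating than in round spermatids of replicate 2. Prm3, the neighbour of the protamine genes, was at 1924 and 2593 CPM against 705 and 412 CPM (edgeR adjusted p = 0.0288).

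The list of outer dense fibre and sheath genes had the highest median, 1.85 against -0.09 for all genes, and 3 of 20 were higher. It was drawn broadly, and not every member is a known part of these accessory structures of the tail. Odf3b was at 50.6 and 127 CPM in elongating and 0.59 and 1.41 CPM in round spermatids (log2 fold change 7.03 ± 0.53 (SE), adjusted p = 0.0002, edgeR). Spata3 and Spata18 were the other two, at 918 and 2698 CPM against 121 and 157 CPM and at 567 and 1231 CPM against 88.2 and 87.4 CPM, and Spata3 was not called without the block. Smcp was at 2892 and 7625 CPM against 1131 and 948 CPM and Odf2, a main protein of the dense fibres, at 2728 and 5886 CPM against 1617 and 1429 CPM. Neither was called (edgeR, adjusted p = 0.0564 and 0.122), and the stages lay further apart in replicate 2 than in replicate 1 for both. Ropn1l, which binds to the fibrous sheath, was at 3347 and 1451 CPM against 3117 and 3435 CPM, and its direction by CPM was not the same in both libraries.

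Genes of head shaping and the manchette, the microtubule skirt that moulds the nucleus, had 4 of 24 higher and none lower (median 0.79). Spem1, needed to shed the cytoplasm from the sperm head, was at 175 and 516 CPM in elongating and 12.5 and 20.5 CPM in round spermatids (log2 fold change 4.82 ± 0.55 (SE), adjusted p = 0.00042, edgeR). Actrt2, of the perinuclear theca, was at 1358 and 1522 CPM against 285 and 169 CPM (edgeR, adjusted p = 0.00635), a call lost with library sizes alone and within 5000 genes and 20000 UMIs. Spem2 and X-linked Cylc1 were the other two. Cylc1 was called neither without the block, nor with library sizes alone, nor within 5000 genes and 20000 UMIs. Spata6, of the head-tail junction, was at 1139 and 2351 CPM against 716 and 806 CPM, and Cylc2 at 454 and 557 CPM against 419.6 and 498 CPM, and neither was called.

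Kinases and phosphatases of spermatids had 4 of 16 higher and 1 lower (median 0.37, and -0.22 with library sizes alone). Prkar2a, a regulatory subunit of protein kinase A, rose most, with 274 and 839 CPM in elongating and 11.2 and 20.2 CPM in round spermatids (log2 fold change 5.58 ± 0.60 (SE), adjusted p = 0.000328, edgeR). Tssk6, a testis-specific serine kinase, was at 624 and 1632 CPM against 25.9 and 48.0 CPM, and Tssk3 and Stk35 also rose. Tssk5 fell, from 46.8 and 31.0 CPM to 7.16 and 2.7 CPM. Tssk3, Stk35 and Tssk5 were not called without the block, and Tssk3 and Stk35 also not with library sizes alone. Tssk2 was at 1137 and 1596 CPM against 534 and 401 CPM (edgeR, adjusted p = 0.0402). Ppp1cc and Ppp3r2, subunits of sperm phosphatases, had log2 fold changes of -0.12 ± 0.55 and -0.14 ± 0.52 (SE). In the thinned barcodes, 48.7% and 80.1% of elongating, 6.12% and 8.74% of round and 1.01% and 2.52% of somatic barcodes had a Tssk6 UMI (unthinned, 70.1% and 93.6%, 14.9% and 23.9% and 9.6% and 19.5%).

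Ubiquitin genes, whose products mark proteins for removal, had 5 of 24 higher and none lower (median 0.89). Ubqlnl, an ubiquilin-like gene, was at 129.6 and 302 CPM in elongating and 4.67 and 7.48 CPM in round spermatids (log2 fold change 5.64 ± 0.52 (SE), adjusted p = 0.000214, edgeR). Otub2, a deubiquitinase, was at 1389.5 and 3389.7 CPM against 168 and 222 CPM (edgeR, adjusted p = 0.00416), a call lost without the block and within 5000 genes and 20000 UMIs. The others were Fbxo39, Rnf133 and Rnf148. Rnf148 was not called without the block, with library sizes alone, within 5000 genes and 20000 UMIs, with members at 2% or more or with an early panel of at least 0.2%. Rnf151 was at 2037 and 499.5 CPM against 965 and 656 CPM, and its higher stage by CPM was not the same in both libraries. Ubb, a polyubiquitin gene, was at 2680.0 and 1669 CPM against 3129 and 2059 CPM.

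Glycolysis genes, which supply the energy of the sperm tail, had 2 of 21 higher and none lower (median 0.98). Gpi1, glucose-6-phosphate isomerase, was at 345 and 602 CPM in elongating and 21.5 and 31.2 CPM in round spermatids (log2 fold change 4.72 ± 0.53 (SE), adjusted p = 0.000392, edgeR), and Pkm was the other, not called with library sizes alone. Gapdhs, the sperm form of glyceraldehyde-3-phosphate dehydrogenase, was at 1259 and 3171 CPM against 408 and 362 CPM (edgeR, adjusted p = 0.0213). It is also a member of the sheath list. Pgam2 was at 928 and 1426 CPM against 1056 and 727 CPM. In the list of germ cell forms of mitochondrial genes, the median was -0.59, below that of all genes. With barcodes thinned to 1500 UMIs it was -0.06, above the -0.13 of all genes. Of the 14 genes, 1 was higher. This was Atp1a4, which encodes the sodium pump of the sperm membrane and not a mitochondrial protein, at 182 and 202 CPM against 65.8 and 70.7 CPM, called neither without the block, nor with library sizes alone, nor within 5000 genes and 20000 UMIs. Cox8c, a subunit of cytochrome c oxidase in the testis, was at 1290.2 and 1069 CPM against 2695 and 2861 CPM, and Gpx4, a selenoprotein of the sperm midpiece, was at 2117 and 3594 CPM against 1823 and 1438 CPM.

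In genes of RNA storage and translation, 1 of 26 was higher and none lower (median -0.06). Eif4e, which encodes the cap-binding protein of translation, was at 678 and 1366 CPM in elongating and 91.9 and 168 CPM in round spermatids (log2 fold change 3.54 ± 0.57 (SE), adjusted p = 0.00246, edgeR), a call lost without the block. Ybx1 and Ybx3, which encode proteins that bind stored mRNAs, had log2 fold changes of -0.01 ± 0.64 and 0.02 ± 0.63 (SE). Gtsf1, of the piRNA pathway, was at 2609 and 1305 CPM against 2207 and 2300.4 CPM.

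The acrosome, axoneme, CatSper and transcription lists had medians below that of all genes. With barcodes thinned to 1500 UMIs their medians were -0.30, -0.51, -0.92 and -0.35, against -0.13 for all genes. Acrosome genes had none of 26 higher and 1 lower, Spam1 (median -0.51). Adam3, a sperm surface protein, was at 509 and 635 CPM against 601 and 629 CPM. Crisp2 was at 1753 and 4013 CPM against 1701 and 1797 CPM and Spaca9 at 1475 and 1201 CPM against 359 and 345 CPM (edgeR, adjusted p = 0.0138). Axoneme genes had 1 of 27 higher (median -0.80), Tekt5, a tektin of the tail microtubules, at 230.1 and 99.9 CPM against 32.4 and 33.9 CPM, a call lost without the block and with library sizes alone. Tubb4b, a tubulin, was at 1979.6 and 1473 CPM against 2228 and 1300.2 CPM. Rsph1, of the radial spokes, was at 616 and 783 CPM against 1381 and 1637 CPM. CatSper and other ion channel genes had none of 15 called by edgeR or DESeq2 and 8 at an unadjusted p under 0.05 (median -0.98). Catsperz was at 609 and 468 CPM against 800.3 and 1094 CPM, and Efcab9 at 231.7 and 76.1 CPM against 299.6 and 319.8 CPM. Catsper4 was at 219.6 and 38.1 CPM against 208.0 and 162.7 CPM, and its direction by CPM was not the same in both libraries. Transcription genes had none of 21 called by edgeR, 1 called higher by DESeq2 and 7 at an unadjusted p under 0.05 (median -0.68). At that cut lay 14 of 20 sheath, 13 of 24 head, 12 of 24 ubiquitin, 10 of 16 kinase and 11 of 21 glycolysis genes. Axoneme and acrosome genes had 10 of 27 and 8 of 26 there. The share of all genes at that cut is not given here. Tbpl1, a TBP-related factor of spermatids, was at 270.0 and 342 CPM against 858 and 1268 CPM, and Crem at 295 and 144 CPM against 535 and 485 CPM, with adjusted p of 0.137 and 0.322 (edgeR). Fhl5, a coactivator of CREM, was at 812 and 352 CPM against 263 and 221 CPM (edgeR, adjusted p = 0.037).

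With members at 10% or more, these lists were counted again, with the alternative chosen after seeing the data. Of 17601 genes tested there, 12.4% were higher and 13.0% lower, with a median log2 fold change of -0.42. Acrosome genes were then lower in 15 of 26 and higher in 2, axoneme genes lower in 13 of 27 and higher in 1, transcription genes lower in 10 of 21 and higher in 1, and CatSper genes lower in 8 of 15 and higher in none. Meiotic genes were lower in 10 of 28 and higher in 2 (median -0.78). Genes of RNA storage were lower in 6 of 26 and higher in 3, chromatin genes lower in 5 of 25 and higher in 4, and germ cell forms of mitochondrial genes lower in 4 of 14 and higher in 1. Sheath genes were higher in 14 of 20 and lower in none, glycolysis genes higher in 9 of 21 and lower in 2, and head genes higher in 10 of 24 and lower in 3. Ubiquitin genes were higher in 9 of 24 and lower in 4, and kinases higher in 6 of 16 and lower in 4. DESeq2, on the stages as first defined, called more members of several lists higher, with 13 of 20 sheath, 10 of 24 head, 8 of 24 ubiquitin, 6 of 16 kinase, 4 of 21 glycolysis and 4 of 25 chromatin genes, against 11.5% of all genes higher and 3.12% lower.

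**Figure D5:**
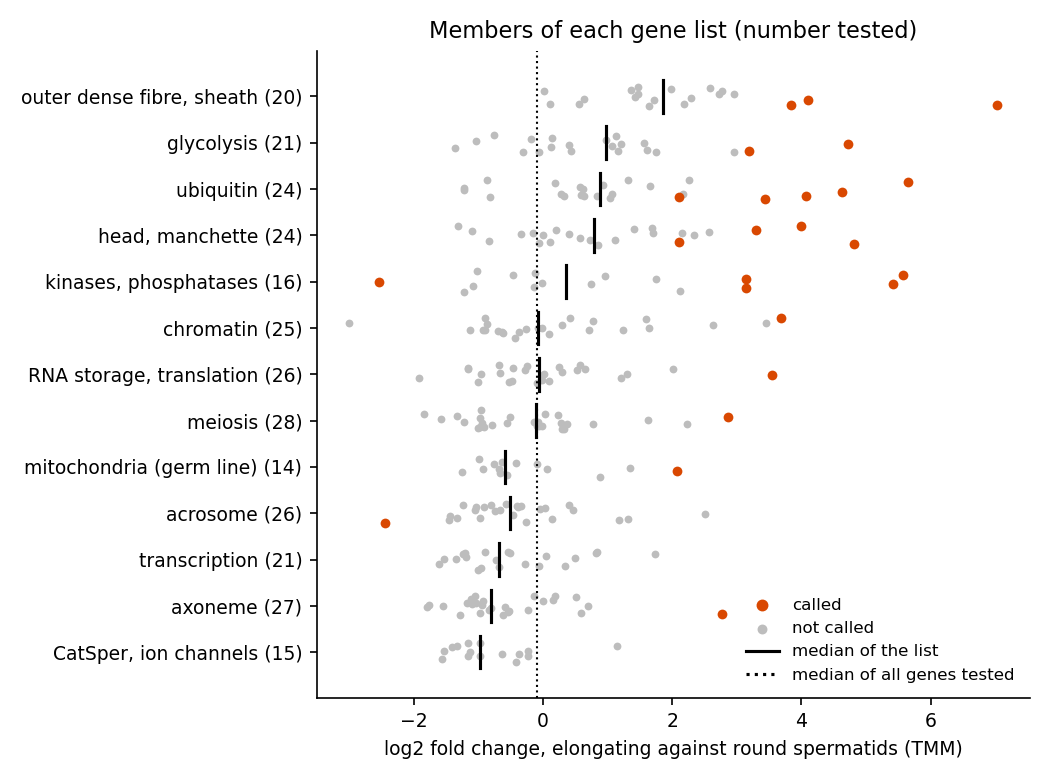
Log2 fold change of elongating against round spermatids with TMM scaling (horizontal axis) for each member tested of 13 gene lists (rows, with the number tested), called members in orange and others in grey. Black bars are list medians, from 1.85 for outer dense fibre and sheath genes to -0.98 for CatSper genes, and the dotted line is the median of all genes, -0.09.

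Meiotic genes had 1 of 28 higher and none lower (median -0.11). This was Dmc1, a recombinase, at 14.6 and 9.12 CPM against 2.9 and 1.92 CPM, with 2.69 and 7.29 CPM in somatic barcodes. It was not called without the block or with library sizes alone. Syce2, of the synaptonemal complex, was at 917 and 2337 CPM against 479 and 456 CPM (edgeR, adjusted p = 0.0496), and Hspa2, the heat shock protein of spermatocytes, at 480.2 and 348 CPM against 1195 and 1209 CPM.

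By chromosome, 60 of 602 X-linked genes were higher (9.97%) and 4 lower, against 7.67% and 1.38% of 17340 autosomal genes. The median was 0.16 for X-linked and -0.10 for autosomal genes with TMM, and -0.43 and -0.69 with library sizes alone. With barcodes thinned to 1500 UMIs the medians lay closer, at -0.06 and -0.13. With members at 10% or more they were -0.25 and -0.42. There 89 of 568 X-linked genes were higher and 69 lower, against 2091 and 2202 of 16952 autosomal genes. Of the 79 ribosomal protein genes none was called by edgeR or DESeq2, and none had an unadjusted p under 0.05. Their median was 0.58 with TMM and -0.01 with library sizes alone, and they gave 4.31% and 4.08% of the UMIs outside the 4 genes in elongating against 5.00% and 3.43% in round spermatids. Long non-coding RNAs (lincRNA) were higher in 11.7% of 2083 and lower in 2.35%, against 6.63% and 1.18% of 14095 protein-coding genes.

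Markers of other cells were low in these barcodes, but some moved with the stage. The 11 Sertoli cell markers summed to 189 and 128 CPM in elongating and 133 and 59.6 CPM in round spermatids, with Aard the most abundant of them in elongating spermatids (54.2 and 45.5 CPM), against 1825 and 3671 CPM in somatic barcodes. Amh was at 0 in both stages of replicate 2, and the other Sertoli cell markers were detected in every sum. Of 10 tested, 6 had an unadjusted p under 0.05, a count with no share of all genes beside it. The median of the 10 was 1.32, and DESeq2 called 2 of them higher. By edgeR 1 was higher (Defb36, 24.8 and 8.72 CPM against 6.52 and 2.37 CPM). That call was lost without the block, with library sizes alone, within 5000 genes and 20000 UMIs and with thinned barcodes. The 6 Leydig cell markers summed to 20.6 and 76.0 CPM against 36.2 and 46.3 CPM, and the 6 macrophage markers to 7.43 and 21.1 CPM against 39.3 and 14.7 CPM. In each of these lists none was called by edgeR or DESeq2 and 1 had an unadjusted p under 0.05. The 6 endothelial and myoid markers summed to 31.1 and 50.2 CPM against 126 and 43.2 CPM, and 1 was higher (Vwf, 6.33 and 15.4 CPM against 1.93 and 3.41 CPM). The 8 spermatogonial markers summed to 69.6 and 33.5 CPM against 80.9 and 48.3 CPM, and 1 was higher (Sohlh1, 16.0 and 4.16 CPM against 1.85 and 0.888 CPM). Vwf and Sohlh1 were called neither without the block nor with library sizes alone, and Vwf also neither within 5000 genes and 20000 UMIs nor with thinned barcodes. With at least 3000 UMIs per barcode, chosen after seeing the data, 4 of 10 Sertoli cell markers were higher and none lower, against 10.7% and 4.06% of all genes. The part of free RNA and of other cells in the results was not tested.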

How the data were processed

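Gene expression of single cells was measured in 2 TO and 2 testis libraries with the Chromium 3′ chemistry of 10x Genomics. The authors deposited UMI counts per gene and barcode, made with Cell Ranger 7.1.0 on mm10 per the labels, without normalization. Whether intronic reads were counted is not given in the sources used here. Of 32285 genes, 32235 were found by Ensembl ID in GENCODE vM21 (GRCm38).

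Elongating spermatids, round spermatids and the gene lists were chosen with earlier results of these data known. Scrublet (scanpy 1.11.5, doublet rate 0.8% per 1000 barcodes) was run per library, and high-scoring barcodes were kept unless stated. UMIs were summed per testis library and stage. CPM are per 1000000 UMIs other than those of Tnp1, Tnp2, Prm1 and Prm2, except for these 4 genes themselves, which are per 1000000 of all UMIs. edgeR 4.0.16 in R 4.3.3 was used with TMM normalization, filterByExpr, library as a block and Benjamini-Hochberg adjustment over all genes tested. The 16 genes that chose the stages were not tested, and the 4 were also left out of library sizes. Both stages come from the same library, which is the source of the pairing. Log2 ratios per library use a pseudocount of 0.5. Each SE is the absolute log2 fold change divided by the square root of the F statistic. Barcodes were thinned to 1500 UMIs where shares of cells were compared, and none was shallower. Intervals are exact binomial (95%), and upper limits of a count of 0 are 3 counts. The edgeR steps were run on simulated counts in which both libraries had the same rate per gene. That run cannot show how errors behave in libraries as unlike as these.

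Genes were named by rule. In each list these were the 3 with the highest mean CPM and the called gene with the largest change. Not all of the most abundant genes chosen in this way are printed. Outside the lists they were the 10 largest rises and falls among called genes of at least 100 CPM, the 10 most abundant, and up to 6 appearing and 6 leaving. Prm3, Tssk6 and other called list members beyond the rule, and the genes followed along the share, were added after their values were seen. Alternatives varied the block, the tool (DESeq2 1.42.0), scaling, filters, limits, definition of stages and depth. DESeq2 ran on the same deposited UMI counts.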

Additional observations from a re-analysis of the deposited data

How the results depend on the processing

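The number of elongating spermatids in replicate 1 moved to 259 with members at 5% or more, to 263 with at least 3000 UMIs and to 103 with members at 10% or more, and in replicate 2 it stayed between 2480 and 4044 under all alternatives. The last 2 alternatives were chosen after seeing the data. Without the replicate block, 633 genes were higher and 5 lower in place of 1392 and 244. Of the 1392, 632 were called without the block. The number higher was 721 with library sizes only, 2218 with all genes of at least 10 UMIs, 2195 with round spermatids below 0.5%, 2183 with members at 10% or more and 2181 at an adjusted p below 0.05 with no fold threshold. The number lower was 563 with DESeq2, 406 with RLE size factors, 987 with all genes of at least 10 UMIs, 845 with members at 5% or more, 382 with at least 500 genes, 149 within 5000 genes and 20000 UMIs, 795 after Scrublet removal, 589 with an early panel of at least 0.2%, 798 with round spermatids below 0.5%, 496 with thinned barcodes, 694 with at least 3000 UMIs, 2285 with members at 10% or more and 1085 at an adjusted p below 0.05. The cause of these moves was not tested. DESeq2 called 1386 of the 1392 higher and all 244 lower genes, and with at least 3000 UMIs 1372 and 243 of them were called. Among 100 named genes, signs reversed for genes that were not called, mostly markers of other cells. With library sizes only, Adam3 was at -0.11, Cyp17a1 at -0.12 and Cyp11a1 at -0.0036 on the log2 scale. With members at 10% or more, Cyp17a1 was at -0.17, Cyp11a1 at -0.32 and Insl3 at -0.20. Acta2 was at 1.15 with an early panel of 0.2%, at 0.30 with round spermatids below 0.5% and at 0.41 with at least 3000 UMIs, and Tagln was at 0.72 with an early panel of 0.2%. With 1 library left out, 1 sum stands against 1 and no number of calls can be given. Replicate 1 gave 552 barcodes with a median of 2797 UMIs against 3399 with a median of 4914 in replicate 2, and depth as a limit of the stage differences was not tested apart from the alternatives above.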
